A study of Rattus norvegicus with 10 samples.

Results

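The ubiquitin-specific proteases (Usp genes in the rat) are the largest family of deubiquitinases, the enzymes that take ubiquitin off other proteins. Among the mRNA probes of a rat microarray, every probe whose RefSeq gene symbol is Usp followed by a digit was taken. This gave 34 probes, 1 per gene, of 15323 mRNA probes, of which 14274 had a symbol, and of 24684 probes in all. Of the 34 genes, 33 were bright enough to be tested. The 1 left out was Usp9x. A further 27 Usp symbols of the RefSeq table were not analysed here. The choice used the name alone and no measured value, so it also took Usp6nl, which is a GTPase-activating protein for Rab proteins and no protease.

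The arrays compared spinal cord RNA of 5 rats made tolerant to morphine (MT) with that of 5 rats given normal saline (NS), to find transcripts that differ in morphine tolerance. All 10 rats were male Sprague Dawley animals of 240 to 260 g with an intrathecal route of injection. MT rats, numbered 1 to 5, received 10 μg of morphine in 10 μl at each of 2 injections a day over 7 days, and NS rats, numbered 6 to 10, received 10 μl of saline on the same schedule. Per the study's methods, a further morning injection of morphine or saline followed on the day after these 7 days. The rats were anesthetized 1 hour later and the lumbar enlargement was taken. Effects of this last injection and of the earlier ones cannot be told apart here. Each rat was hybridised to 1 one-colour array.

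Ubiquitin is a small protein that is joined to other proteins as a tag. Depending on how the tags are linked, a tagged protein is sent to the proteasome, taken from the cell surface into endosomes, or altered in its partners. Ubiquitin-specific proteases cut these tags with a catalytic cysteine, and members differ in the place where they act: at the proteasome, on endosomes that carry receptors, on chromatin, on mitochondria or in immune signalling. In neurons and glia, ubiquitin tagging takes part in receptor turnover and synaptic protein turnover.

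The study placed Usp13, Usp31 and Usp42 as mRNA targets in proposed competing-RNA networks, in which a long non-coding RNA and an mRNA share a binding microRNA. Its text connects Usp31 and Usp42 with let-7 and miR-365, and Usp13 with miR-133. These microRNAs are shown because they are the proposed link to 3 members of the family. Where the text gave no arm, both arms were taken for miR-365 and let-7, and the sequences are those of RefSeq on build GRCr8, 5′ to 3′, with the seed (bases 2 to 8) in capitals.
rno-miR-365-5p, chr10:65184231-65184247, + strand: gAGGGACUuucaggggc
rno-miR-365-3p, chr10:65184271-65184292, + strand: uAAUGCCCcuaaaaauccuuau
rno-let-7a-5p, chr8:50805219-50805240, + strand: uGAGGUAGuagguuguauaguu
rno-let-7g-5p, chr8:115701026-115701047, + strand: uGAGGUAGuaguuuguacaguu
rno-let-7a-2-3p, chr8:50805264-50805285, + strand: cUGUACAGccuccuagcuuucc
rno-let-7g-3p, chr8:115701083-115701103, + strand: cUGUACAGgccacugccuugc
rno-miR-133b-3p, chr9:30594629-30594650, + strand: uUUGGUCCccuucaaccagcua
The let-7 5p arms shared the seed GAGGUAG, the let-7 3p arms shared the seed UGUACAG, and neither seed was that of miR-365 or miR-133b. No microRNA was measured on these arrays, so the values below are those of the mRNAs alone.

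The 10 arrays fell on 3 slides by their shared scan times. Slide 1 held MT rats 1, 3, 4 and 5, slide 2 held MT rat 2 with NS rats 6, 7 and 10, and slide 3 held NS rats 8 and 9, so slide 2 alone held both groups. Every log2 fold change below with the slide as a fixed block therefore sets MT rat 2 alone against NS rats 6, 7 and 10. Such a value rests on 1 MT rat and is no estimate over all 10 rats. The median spot intensity was 74.4 to 89.6 on MT arrays and 29.8 to 101 on NS arrays, with the 2 lowest values on slide 3. There 63.8% and 58.6% of spots were well above background, against 77.4% to 83.9% on the other arrays. Markers of neurons, oligodendrocytes, astrocytes and microglia were well above background on all 10 arrays. So was Hoxd10, a gene of the lumbar cord and the only listed lumbar gene with a probe. Markers of erythrocytes, skeletal muscle, dorsal root ganglion and Schwann cells, such as Hbb, Acta1, Calca and Pmp22, were so too. This check therefore does not single out the labelled tissue. Since the tissue is a mixture, fewer cells of a type and less RNA per cell cannot be told apart. The arrays were adjusted to the same distribution of log2 intensities (quantile normalization), and a level below is such a normalized log2 intensity of 1 probe. The number of arrays limits the precision.

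The Usp genes showed no common shift between MT and NS rats. Of 33 tested members, 17 were higher in MT rats by any amount (51.5%, against 49.8% of all 20284 RNAs tested), and the median log2 fold change was 0.0058, against -0.0013 over all RNAs. Log2 fold changes, MT minus NS, ran from -0.39 for Usp30 to 0.73 for Usp13. No member passed an adjusted p of 0.05 in limma's moderated test (0.197% of all RNAs did). At an unadjusted P below 0.05 there were 4 members, or 12.1%, against 16.4% of all RNAs. Usp30, Usp2 and Usp16 fell at this level and made 9.09% of the members, against 9.53% of all RNAs. Usp7 rose and made 3.03%, against 6.84%. No member met both criteria of the study, an unadjusted P below 0.05 and a linear fold over 1.5 (2.74% of all RNAs did). The paper's text words this threshold on the log2 scale, while its figure legends write 1.5-fold, so the linear reading was used here. A linear fold above 1.5 without a test was reached by Usp13 alone, 3.03% of members against 5.7% of all RNAs.

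**Figure D1:**
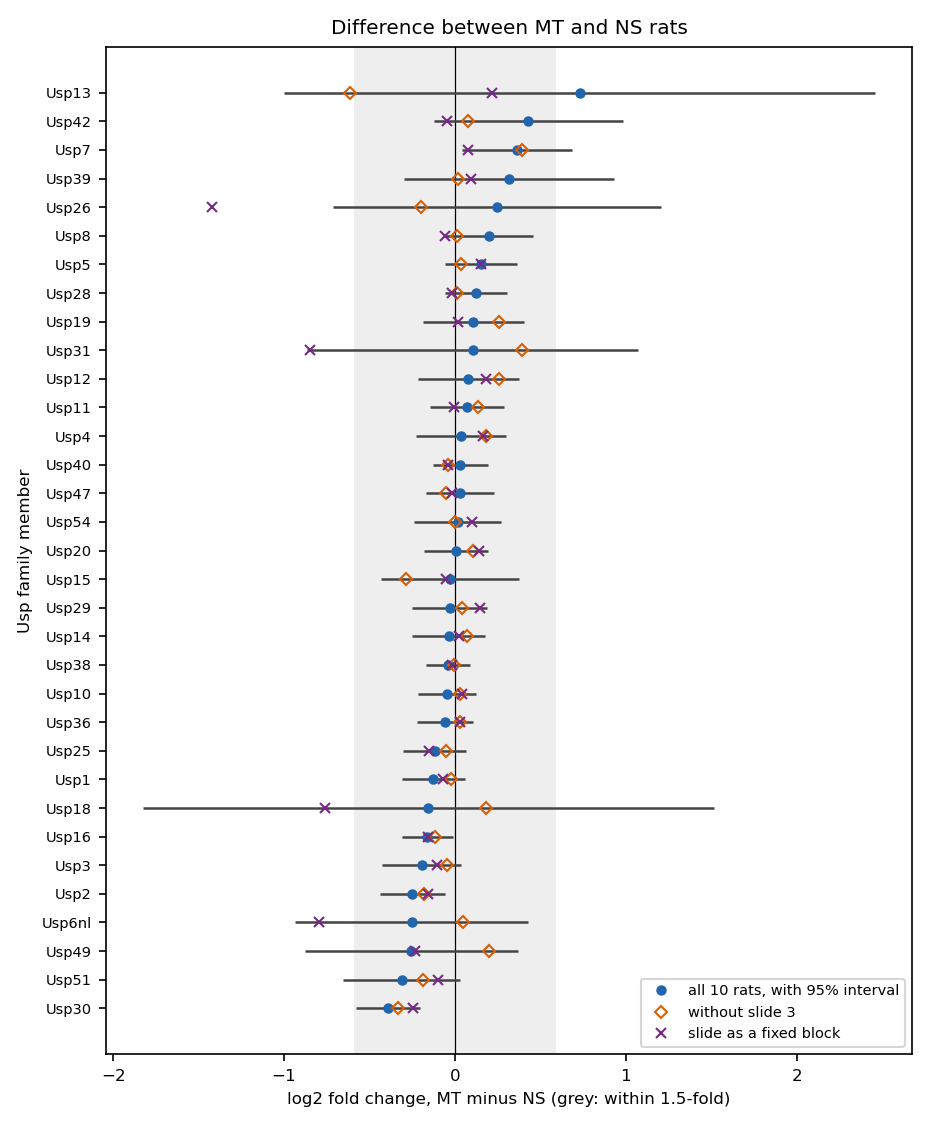
Log2 fold change (MT minus NS) of the 33 tested Usp family members on the horizontal axis, 1 member per line. Blue points are the fit over all 10 rats with 95% intervals, and open orange diamonds leave out slide 3. Purple crosses use the slide as a block, so they set MT rat 2 against the NS rats of its slide. The grey band spans 1.5-fold either way. Usp30 lies lowest at -0.39, and Usp13 lies highest at 0.73 but at -0.61 without slide 3.

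In the fit without slides, most members had a narrow interval for the difference. The 95% interval of the MT to NS difference lay within 1.5-fold either way for 23 of 33 members (69.7%), against 64.9% of all RNAs. Without slide 3 it did so for 26 members (78.8%, against 69.4% of all RNAs), and with the slide as a block for 22 (66.7%, against 57.6%). Over all rats the interval of Usp38, for example, ran from -0.17 to 0.09 on the log2 scale, that of Usp40 from -0.13 to 0.19, and that of Usp10 from -0.21 to 0.12. The 10 members with wider intervals were Usp13, Usp18, Usp26, Usp31, Usp6nl, Usp49, Usp39, Usp42, Usp51 and Usp7. The pooled SD between rats of a group had a median of 0.162 over members and ran from 0.0533 for Usp38 to 1.37 for Usp13, followed by 1.32 for Usp18 and 0.763 for Usp31.

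**Figure D2:**
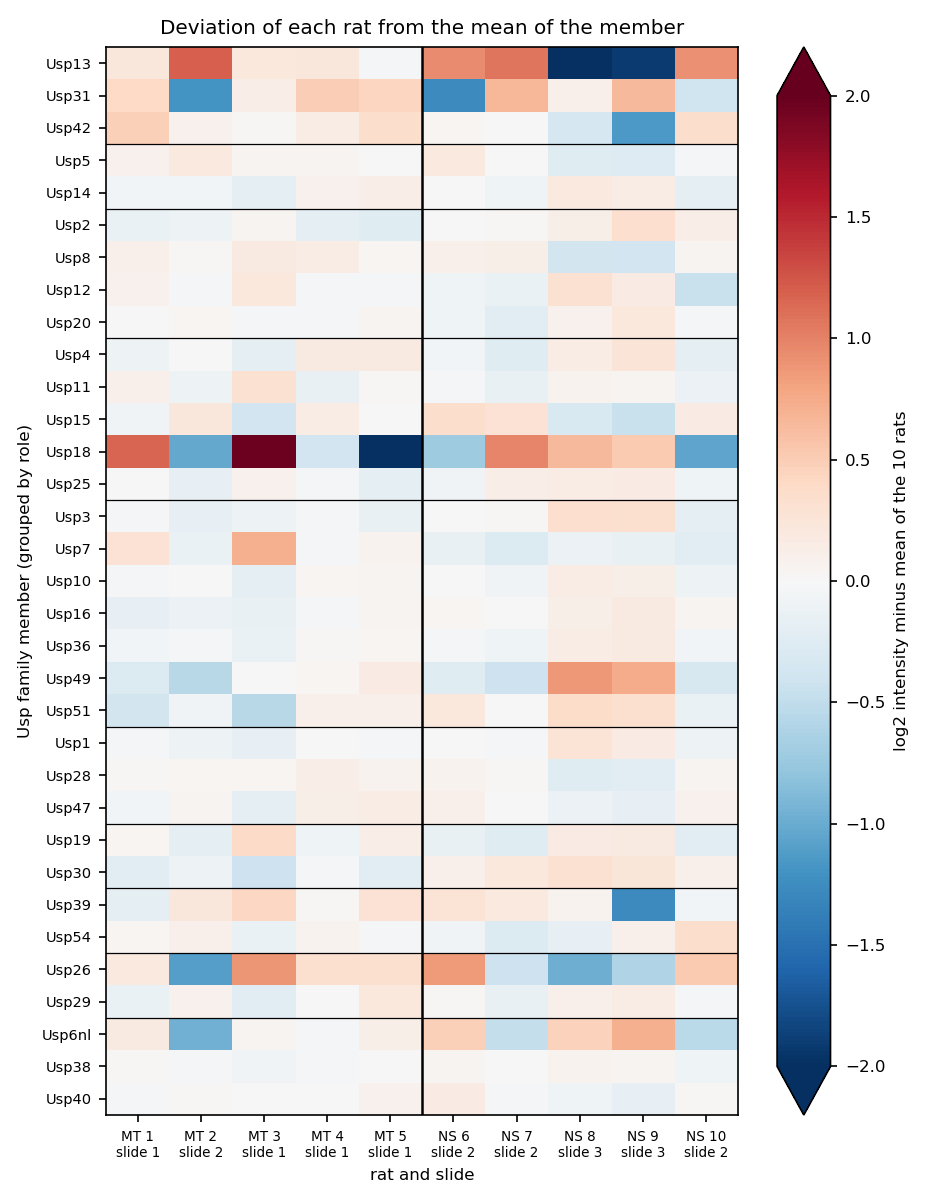
Normalized log2 intensity of each of the 33 tested members (rows, grouped by role between thin lines) in each rat (columns, MT left and NS right of the thick line) minus the mean of that member over the 10 rats. Colours are cut off at 2 in either direction. The strongest colours lie in Usp13, Usp18, Usp31 and Usp26, and those of Usp13 follow the slides.

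Of the 3 proposed competing-RNA targets, none passed an unadjusted P of 0.05 over all 10 rats (16.4% of all RNAs did). Usp13 is the closest relative of Usp5 and takes part in protein quality control at the endoplasmic reticulum and in autophagy. Its level was 11.67, 12.64, 11.65, 11.67 and 11.42 in MT rats 1 to 5 and 12.39, 12.52, 8.59, 9.54 and 12.36 in NS rats 6 to 10. NS rats 8 and 9, those of slide 3, stood far below all others, while the other 3 NS rats lay above 4 of the 5 MT rats. The log2 fold change was 0.73 with a standard error of 0.78 (adjusted p = 0.659 in limma's moderated test). Without slide 3 it turned to -0.61 with a standard error of 0.25 (adjusted p = 0.255). Blocking on the slide, which leaves MT rat 2 against the NS rats of slide 2, gave 0.21 with a standard error of 0.30. The intensities before normalization were also lowest there: 287 and 400 on slide 3, against 2791 to 7284 on the other 8 arrays. These include the lower signal of slide 3 as a whole, with median spot intensities of 42.1 and 29.8, against 74.4 to 101 on the other arrays. Usp13 was also the only member whose 3 slides did not overlap (9.42% of all RNAs). It lay at 11.42 to 11.67 on slide 1, at 12.36 to 12.64 on slide 2 and at 8.59 to 9.54 on slide 3. Within the NS group the mean of slide 3 was lower than that of slide 2 by a log2 difference of -3.36, and only 32 of 20279 RNAs, or 0.158%, had a gap as large in this direction.

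Usp31, a regulator of NF-kB signalling, varied widely within both groups. Its level was 6.37, 4.79, 6.12, 6.46 and 6.41 in MT rats 1 to 5 and 4.70, 6.64, 6.08, 6.63 and 5.58 in NS rats 6 to 10. The lowest values were those of MT rat 2 and NS rat 6, and the groups overlapped over nearly their whole range. The log2 fold change was 0.10 with a 95% interval from -0.87 to 1.07 (adjusted p = 0.921). Leaving out NS rat 6 turned it to -0.20, and blocking on the slide gave -0.85 with a standard error of 0.60.

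Usp42, which acts on histones, was dim. Its level was 4.48, 4.10, 4.02, 4.15 and 4.35 in MT rats and 4.05, 4.02, 3.67, 2.86 and 4.36 in NS rats. The signal stood clear of background in all 5 MT rats and in 3 of 5 NS rats, the exceptions being those of slide 3, which also gave its lowest values. The log2 fold change was 0.43 with a standard error of 0.25 (adjusted p = 0.414), but its slide 3 values lay below the lowest signal well above background on those arrays (4.25 and 4.28), so they give only an upper limit there. Over the other 8 rats the log2 fold change was 0.08 with a standard error of 0.13. An exact two-sided permutation test over the 252 ways to divide the 10 rats gave p = 0.429 for Usp13, p = 0.833 for Usp31 and p = 0.111 for Usp42. This test, here and below, exchanges rats across slides, and its p-values are not adjusted. Below it is given for members chosen by their unadjusted P in the same values, so there it is no separate support.

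**Figure D3:**
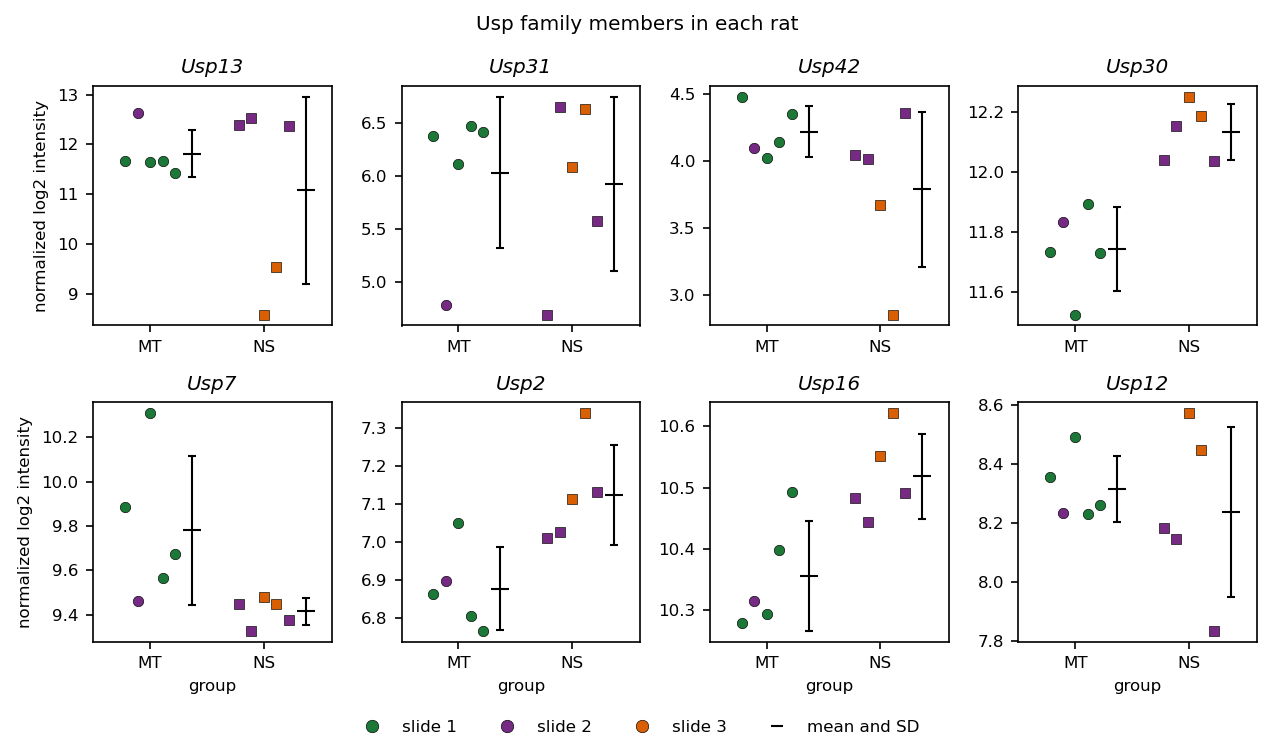
Normalized log2 intensity of 8 Usp family members in each MT rat (circles) and NS rat (squares), coloured by slide, with the mean and SD of each group in black. Each panel has its own vertical axis. Usp30 separated the groups completely, and in Usp13 and Usp42 the lowest NS values were those of slide 3.

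Usp30 showed the clearest difference of the family. It sits in the outer membrane of mitochondria, where it removes ubiquitin that Parkin attaches and so restrains mitophagy. Its level was 11.73, 11.83, 11.52, 11.89 and 11.73 in MT rats 1 to 5 and 12.04, 12.15, 12.25, 12.19 and 12.04 in NS rats 6 to 10. The highest MT rat lay below the lowest NS rat, and slide 2 showed the same order, with MT rat 2 below its 3 NS rats. MT minus NS, the log2 fold change was -0.39 with a standard error of 0.084, a 1.31-fold lower level in MT rats. limma's moderated test gave an unadjusted P of 8.82e-04 and an adjusted p of 0.0933. For Usp30 the exact two-sided permutation test gave p = 0.00794, the smallest p this design allows. Every RNA whose groups do not overlap reaches that p. Without slide 3 the log2 fold change was -0.33 (adjusted p = 0.196). Blocking on the slide, MT rat 2 against its 3 NS rats, gave -0.25 with a standard error of 0.14 and no longer passed the unadjusted level. With the slide as a random block it was -0.33, with an unadjusted P of 0.0118 and an adjusted p of 0.540 in limma's moderated test. Usp30 was the only member whose groups did not overlap, 3.03% of members, against 5.64% of all RNAs in either direction and 3.29% in this direction. Usp19, which is anchored in the endoplasmic reticulum, was the other tested member of the organelle group. It lay between 7.43 and 8.00 in MT rats and between 7.37 and 7.80 in NS rats, with a log2 fold change of 0.11 and a standard error of 0.13.

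Usp16, which removes ubiquitin from histones, also fell at the unadjusted level. Its level was 10.28, 10.32, 10.29, 10.40 and 10.49 in MT rats and 10.48, 10.44, 10.55, 10.62 and 10.49 in NS rats. MT rat 5 lay within the NS range, and the other 4 MT rats lay below it. This gave a log2 fold change of -0.16 with a standard error of 0.067 (adjusted p = 0.278). The exact two-sided permutation test gave p = 0.0317. The call at the unadjusted level was lost without slide 3 (log2 fold change -0.12, adjusted p = 0.405), and when slides entered as a fixed block (-0.16, adjusted p = 1.00) or a random block (-0.17, adjusted p = 0.760).

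The promoters of Usp30 and Usp16 are shown because both genes were lower in MT rats at the unadjusted level and both windows held the same motif. They are the 250 bases before the start in the RefSeq table on build GRCr8, 5′ to 3′ on the strand of the gene, with the motif CCGGAAGT in capitals. The RefSeq table places both starts inside the span of the gene. This motif, a form of the ETS factor site, was chosen after the sequences were seen.
Usp30, chr12:48185598-48185847, - strand: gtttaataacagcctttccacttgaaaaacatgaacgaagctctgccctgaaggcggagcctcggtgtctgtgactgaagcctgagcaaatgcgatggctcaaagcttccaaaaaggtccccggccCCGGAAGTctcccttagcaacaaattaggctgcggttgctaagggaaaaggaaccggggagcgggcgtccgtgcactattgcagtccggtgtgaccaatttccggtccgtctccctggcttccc
Usp16, chr11:40167416-40167665, + strand: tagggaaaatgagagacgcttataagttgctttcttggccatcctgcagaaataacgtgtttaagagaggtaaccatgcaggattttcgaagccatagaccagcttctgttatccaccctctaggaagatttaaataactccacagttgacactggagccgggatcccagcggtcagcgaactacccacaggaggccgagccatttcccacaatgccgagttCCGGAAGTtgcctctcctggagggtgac
The motif began 124 bases before the start of Usp30 and 28 bases before that of Usp16. On either strand it was found in 5 of the 28 members with a promoter sequence (17.9%), namely Usp8, Usp11, Usp16, Usp30 and Usp38, and in 902 of 27457 promoters of the same length (3.29%). Without Usp30 and Usp16, from which it was chosen, it was in 3 of 26 (11.5%). The E-box CACGTG, also chosen after the sequences were seen, was in 3 of 28 members (10.7%) and in 5.79% of promoters. Of the other members with CCGGAAGT, Usp8 had a log2 fold change of 0.20, Usp11 of 0.07 and Usp38 of -0.04. The members with this motif thus did not share a direction. A match of letters is a description and not a binding site.

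Usp7 was the member that rose at the unadjusted level. It removes ubiquitin from other proteins, among them the ubiquitin ligase Mdm2. Its level was 9.88, 9.46, 10.31, 9.57 and 9.68 in MT rats and 9.45, 9.33, 9.48, 9.45 and 9.38 in NS rats. MT rats 1 and 3 stood highest, the NS rats lay close together, and the groups met only where MT rat 2 lay just below NS rat 8. Between the groups, the log2 fold change was 0.36 with a standard error of 0.14 (adjusted p = 0.263). The exact two-sided permutation test gave p = 0.0159. With the slide as a block, where the value comes from MT rat 2 against the 3 NS rats of slide 2, the log2 fold change was 0.08 with a standard error of 0.25. Without MT rat 3 it was 0.23, and without slide 3 it was 0.39 with an unadjusted P of 0.0586.

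The group of histone and transcription enzymes thus held 1 member that rose and 1 that fell at the unadjusted level among 7 tested beside Usp42. Of all RNAs, 6.84% rose and 9.53% fell at this level. The median log2 fold change of the group was -0.16. Usp49 lay at 4.79, 4.50, 5.07, 5.10 and 5.22 in MT rats and at 4.82, 4.65, 5.93, 5.81 and 4.74 in NS rats. Here the 2 rats of slide 3 were the highest after normalization, the opposite of Usp13, and the log2 fold change went from -0.26 to 0.20 without them. Before normalization they were not: Usp49 had 33.9 and 21.3 on slide 3, against 31.3 to 43.1 on the other arrays. Usp51, which acts on histones, lay at 5.96, 6.25, 5.77, 6.43 and 6.43 in MT rats and at 6.53, 6.34, 6.70, 6.64 and 6.19 in NS rats, with a log2 fold change of -0.31 (adjusted p = 0.346). Usp3, which acts on histones, Usp10, and Usp36, a nucleolar enzyme, had log2 fold changes of -0.19, -0.05 and -0.06.

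In the group that acts on receptors, arrestins and endosomes, 1 of 4 tested members passed the unadjusted level (16.4% of all RNAs did). Usp2, a deubiquitinase whose transcript cycles with the circadian clock, lay at 6.86, 6.90, 7.05, 6.81 and 6.77 in MT rats and at 7.01, 7.03, 7.11, 7.34 and 7.13 in NS rats. MT rat 3 lay within the NS range and the other 4 MT rats below it. The difference was a log2 fold change of -0.25 with a standard error of 0.085 (adjusted p = 0.206). The exact two-sided permutation test gave p = 0.0238, but leaving out slide 3 gave a log2 fold change of -0.18 (P = 0.0564) and blocking on the slide -0.16 (P = 0.287).

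Usp8 works on endosomes, where it decides with the ESCRT machinery whether receptors are degraded or recycled. It lay at 11.96, 11.88, 12.04, 12.01 and 11.89 in MT rats and at 11.95, 11.97, 11.49, 11.48 and 11.90 in NS rats. The MT rats and the NS rats of slide 2 could not be parted, and slide 3 alone was low. MT minus NS, the log2 fold change was 0.20 over all rats and 0.01 without slide 3. Usp20, which takes part in the recycling of the beta-adrenergic receptor, had a log2 fold change of 0.01 with a 95% interval from -0.18 to 0.19.

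Usp12 lay at 8.36, 8.24, 8.49, 8.23 and 8.26 in MT rats and at 8.18, 8.15, 8.57, 8.45 and 7.84 in NS rats. It works with the partner Wdr48. The 2 rats of slide 3 were high after normalization, though not before it (284 and 179, against 218 to 404 on the other arrays). The remaining 3 NS rats lay below every MT rat. This gave a log2 fold change of 0.08 over all rats and 0.26 without slide 3 (adjusted p = 0.250).

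At the proteasome, Usp5 takes apart free ubiquitin chains and Usp14 trims chains on proteins that arrive there. Usp5 lay between 14.60 and 14.80 in MT rats and between 14.34 and 14.79 in NS rats, with a log2 fold change of 0.15 and a standard error of 0.094. Usp14 lay between 13.08 and 13.41 in MT rats and between 13.10 and 13.47 in NS rats, with a 95% interval of the log2 fold change from -0.25 to 0.18. Neither passed the unadjusted level (16.4% of all RNAs did).

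The DNA repair and cell cycle members Usp1, Usp28 and Usp47 had log2 fold changes of -0.13, 0.12 and 0.03. Usp1, which acts on proteins of DNA crosslink repair, had a standard error of 0.083, Usp28 one of 0.081 and Usp47 one of 0.089. None of these 3 passed the unadjusted level (16.4% of all RNAs did).

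Among the members of NF-kB, interferon and innate signalling, none of 5 tested passed the unadjusted level (16.4% of all RNAs did). Usp4, Usp11, Usp15 and Usp25 had log2 fold changes of 0.03, 0.07, -0.03 and -0.12, with standard errors from 0.083 for Usp25 to 0.18 for Usp15. Usp15 was lower on slide 3 than on slide 2 within NS rats by a log2 difference of -0.65, and leaving slide 3 out moved its log2 fold change to -0.29.

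Usp18 differed strongly between rats, but not between groups. It removes the ubiquitin-like protein Isg15 from other proteins, restrains signalling of the type I interferon receptor and is itself induced by interferon. Its level was 11.10, 8.92, 11.90, 9.55 and 7.85 in MT rats 1 to 5 and 9.24, 10.93, 10.59, 10.46 and 8.89 in NS rats 6 to 10. The highest and the lowest rat were both MT rats of slide 1. Between the groups, the log2 fold change was -0.16 with a 95% interval from -1.83 to 1.52 (adjusted p = 0.931).

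Isg15, the protein tag that Usp18 removes, lay at 11.99, 9.47, 12.82, 9.98 and 8.84 in MT rats and at 9.92, 12.23, 11.66, 11.46 and 9.05 in NS rats. The order of the 10 rats was that of Usp18, except that MT rat 1 and NS rat 7 changed places. The log2 fold change of Isg15 was -0.24 with a standard error of 0.87 (adjusted p = 0.907). Irf7, Mx1 and Ifit1, further genes induced by interferon, were added after the values of Usp18 were seen. Irf7 ran from 9.73 in MT rat 5 to 13.98 in NS rat 7, and Mx1 ran from 6.36 in MT rat 5 to 10.46 in MT rat 3. In Usp18, Isg15, Irf7 and Mx1 alike, MT rats 1 and 3 and NS rats 7, 8 and 9 were the 5 highest. Ifit1, a dim probe between 1.83 and 4.83, did not share this order. Since the rats fell into a higher and a lower set of 5, too few for a correlation within each, no correlation is given.

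**Figure D4:**
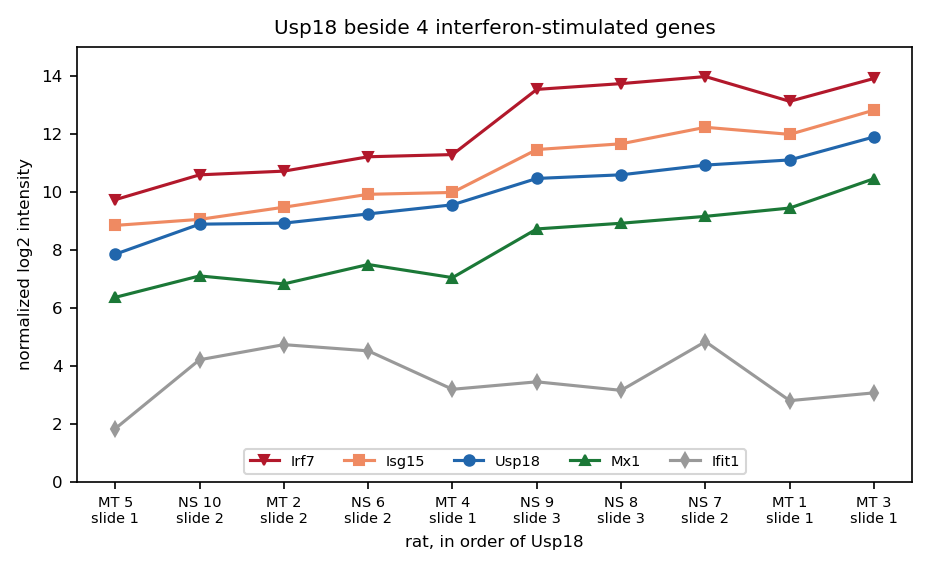
Normalized log2 intensity (vertical axis) of Usp18, Isg15, Irf7, Mx1 and Ifit1 in the 10 rats, ordered from the lowest to the highest Usp18. Lines join the values of 1 gene as a guide, and heights of different genes are not comparable because each is a different probe. Usp18 ran from 7.85 to 11.90, MT and NS rats were mixed along the order, and Isg15, Irf7 and Mx1 rose along it.

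The remaining members included 3 near background and some without protease function. Usp39, a splicing protein without the usual catalytic residues, stood clear of background in 3 of 5 NS rats and lay at 3.73, 4.15, 4.34, 3.95 and 4.21 in MT rats and at 4.19, 4.12, 3.99, 2.65 and 3.86 in NS rats. NS rat 9 gave the lowest value. Its value and that of NS rat 8 lay under the lowest signal well above background on their arrays (4.28 and 4.25), so both are only upper limits. The log2 fold change was 0.31 over all rats and 0.04 without NS rat 9, where NS rat 8 still entered. It was 0.02 without slide 3. Usp54 had a log2 fold change of 0.02 with a standard error of 0.12.

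The germ line member Usp26 lay near background and stood clear of it in 4 of 5 MT rats and 2 of 5 NS rats. Its level was 3.43, 2.12, 4.11, 3.54 and 3.55 in MT rats and 4.07, 2.81, 2.25, 2.63 and 3.76 in NS rats. The difference was a log2 fold change of 0.25 with a standard error of 0.43. Blocking on the slide gave -1.42, the value of MT rat 2 against the 3 NS rats of its slide. MT rat 2 lay below the lowest signal well above background on its array (2.48), so its value is only an upper limit. NS rats 8 and 9 also lay below that signal on their arrays (4.25 and 4.28), so neither log2 fold change is firm. Usp29, the other germ line member, had a log2 fold change of -0.03 with a 95% interval from -0.25 to 0.19.

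Usp6nl lay at 6.47, 5.32, 6.35, 6.27 and 6.41 in MT rats and at 6.78, 5.82, 6.75, 7.00 and 5.76 in NS rats, so that MT rat 2 and NS rats 7 and 10 were low. Its log2 fold change was -0.25 over all rats and 0.05 without slide 3. Usp9x, a large deubiquitinase of synapses and endosomes, stood clear of background in 4 of 5 MT rats and in no NS rat. It was therefore not tested. Its level was 3.26, 3.50, 3.59, 3.13 and 3.35 in MT rats and 3.40, 3.09, 2.98, 3.48 and 2.78 in NS rats, which overlapped. The lowest signal well above background was at 4.25 and 4.28 on the arrays of slide 3, against 2.48 to 2.77 on the other 8, so no fold is given.

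The difference between slides within the NS group was larger in size than the difference between MT and NS for 29 of 33 members (71.3% of all RNAs showed the same). The other 4 were Usp30, Usp7, Usp2 and Usp16. The median size of the gap between slide 3 and slide 2 within NS rats was 0.28 for members and 0.268 for all RNAs. That of the MT to NS difference was 0.122 for members and 0.145 for all RNAs. The gap sets 2 rats against 3 and the MT to NS difference 5 against 5, so the gap is less precise and tends to be larger. A gap above 1.5-fold was found for 9 members, or 27.3%, against 23.0% of all RNAs. After normalization, 11 of the members were lower on slide 3 and 22 were higher. The log2 fold change of 11 members turned sign when slide 3 was left out. The shares of all RNAs that turned sign, or were lower on slide 3, were not counted.

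**Figure D5:**
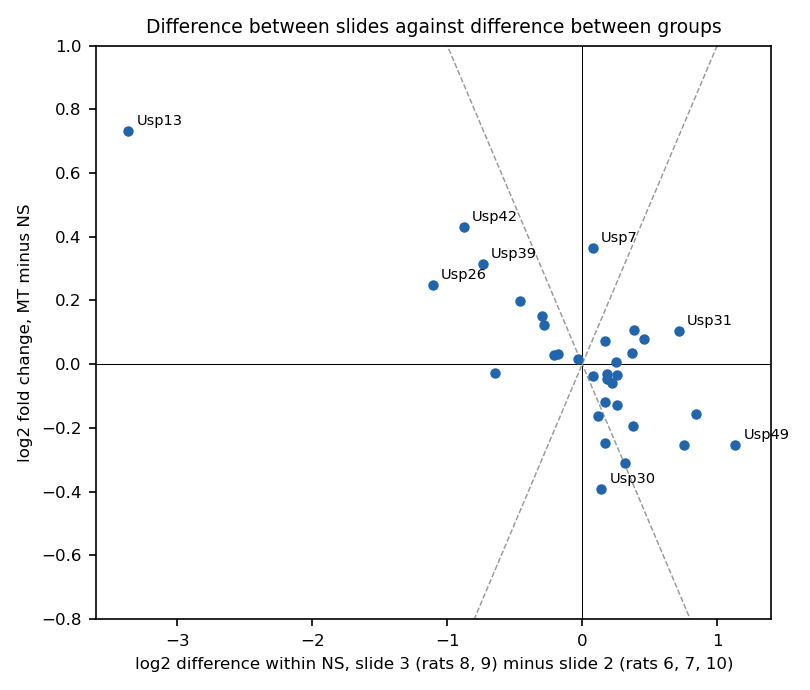
Log2 fold change between MT and NS rats (vertical axis) against the log2 difference between the NS rats of slide 3 and those of slide 2 (horizontal axis) for the 33 tested members. Points between the dashed lines and the vertical axis differ more between groups than between slides. Usp13 lies far to the left at -3.36, and the 4 points that differ more between groups are Usp30, Usp7, Usp2 and Usp16.

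Without slide 3, 3 members passed an unadjusted P of 0.05 (9.09%, against 18.3% of all RNAs): Usp30 and Usp13, which were lower in MT rats, and Usp12, which was higher. The groups did not overlap for Usp7, Usp30 and Usp12 (9.09%, against 12.3% of all RNAs). With the slide as a block, 1 member passed, Usp26 (3.03%, against 4.14% of all RNAs). That call rests on MT rat 2, whose Usp26 level (2.12) lay below the lowest signal well above background on its array (2.48). Slide 1 held no NS rat and slide 3 no MT rat, so for those arrays slide and treatment cannot be told apart.

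Levels of some cell type markers moved with the groups as well. The 5 microglia markers were all lower in MT rats, 4 of them at the unadjusted level (9.53% of all RNAs were). Their mean deviation ran from -0.46 to 0.07 in MT rats and from 0.02 to 0.45 in NS rats, on the log2 scale. The 4 tested markers of neutrophils and blood myeloid cells held 2 that rose at the unadjusted level (6.84% of all RNAs did). Lcn2 of this list went the other way, with a log2 fold change of -0.24. The mean deviation of the list ran from 0.17 to 0.66 in MT rats and from -0.93 to 0.16 in NS rats. Among 6 RNAs of 4 dorsal root ganglion markers, 3 rose at the unadjusted level (6.84% of all RNAs did), all of them RNAs of Calca. The ranges of this list overlapped, -0.25 to 0.47 in MT rats and -0.58 to 0.38 in NS rats. At the same level Rbfox3 of neurons rose, and Cnp of oligodendrocytes and 1 RNA of Slc1a2 of astrocytes fell. No marker of these lists passed an adjusted p of 0.05, and their part in the values of Usp30, Usp2, Usp16 and Usp7 was not tested.

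The other deubiquitinase families were measured by 22 of 36 listed genes. At the unadjusted level 2 rose and 2 fell (18.2%, against 16.4% of all RNAs), none passed an adjusted p of 0.05, 8 of 22 were higher in MT rats (36.4%, against 49.8%) and the median log2 fold change was -0.04. Uchl1, a very abundant neuronal ubiquitin hydrolase, lay at 15.88 to 15.93 in MT rats and at 15.66 to 15.85 in NS rats, with a log2 fold change of 0.16 (adjusted p = 0.249). Uspl1, a relative of the family that acts on SUMO, rose by a log2 fold change of 0.28 (adjusted p = 0.245). Yod1 and Mindy3, which act on ubiquitin chains, fell by 0.25 and 0.16 on the log2 scale, with adjusted p = 0.215 and 0.267. The groups did not overlap for Yod1, Uchl1 and Psmd7, a proteasome subunit (13.6%, against 5.64% of all RNAs).

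Ubiquitin genes, activating enzymes and partners of the family were measured by 17 of 21 listed genes. None rose and 2 fell at the unadjusted level (11.8%, against 16.4% of all RNAs), and none passed an adjusted p of 0.05. Stam, an endosomal protein that binds Usp8, fell by 0.25 on the log2 scale (adjusted p = 0.247), and all its MT rats lay below all its NS rats. Arrb1, an arrestin that desensitises and internalises opioid and other receptors, had a log2 fold change of -0.31 with a standard error of 0.20, and of -0.0038 without slide 3. Rps27a, which encodes ubiquitin fused to a ribosomal protein, had a log2 fold change of 0.09 with a standard error of 0.084.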

How the data were processed

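Total RNA of 5 MT and 5 NS rats was labelled by random priming and hybridised to rat lncRNA and mRNA arrays. The authors read the scans with Agilent Feature Extraction 11.0.1.1 and deposited its output per array, of which the linear spot intensity after background subtraction was used here, together with the marks for outlier spots and for signal well above background. The authors also deposited a table of normalized log2 intensities, used as an alternative (r = 0.993 to 0.999 with the values here).

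Intensities were floored at 1, quantile normalized as log2 values with limma 3.58.1 (R 4.3.3), freed of outlier spots and averaged per probe and RNA. RNAs entered the test where at least 5 arrays had over 50% of the spots clear of background. limma's moderated test was fitted over all 20284 RNAs with Benjamini-Hochberg adjustment, without covariates. Symbols came from the RefSeq table through the probe's accession. Exact permutation tests were run in R. Sequences were handled in Python 3.11.15 and figures drawn with matplotlib 3.10.9. The fit was tested on simulated data. Full statistics go to the proposed targets, members with an unadjusted P below 0.05 or groups that do not overlap, and the 5 highest and 5 lowest log2 fold changes of the family, and to up to 5 genes of each pathway list with the smallest P. For the ubiquitin list, 2 of these genes are not reported here. Irf7, Mx1 and Ifit1 fall outside this rule, as do Usp8, Usp12 and Usp18, whose values are given for their pattern over slides or rats. The members and lists were chosen with earlier results of these data known. The sources give rats as separate animals and no more, so P-values measure the spread between these 10 samples.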

Additional observations from a re-analysis of the deposited data

Results flagged for a closer look

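Of 66 sets of 5 rats (33 members in each group), 4 held 1 rat that stood apart from the other 4. The measure is the gap of that rat to its nearest neighbour as a share of the whole range of the group, with a cut-off of 0.71. The nominal rate of this measure is about 5%, and the share over all RNAs was not counted. With the slides unevenly divided, the nominal rate need not hold here, so the count is a description. In MT rats, rat 2 was the lowest for Usp6nl (0.820 of the range), the highest for Usp13 (0.792) and the lowest for Usp31 (0.792). MT rat 2 was the only MT rat on slide 2. In NS rats, rat 9 was the lowest for Usp39 (0.782), and it was on slide 3, which had the lowest signal. That value was not well above background.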

How the results depend on the processing

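Across 23 alternatives, Usp30, Usp2, Usp16, Usp51 and Usp7 kept their direction, and 13 to 20 members were higher in MT rats. The count of members at an unadjusted P below 0.05, 4 in the report, was 9 with normexp background correction (27.3%, against 17.7% of all RNAs). It was 1 with the slide as a fixed block (3.03% against 4.14%) and 1 with it as a random block (3.03% against 7.01%, consensus correlation 0.465). With 1 rat left out it ran from 2 (without MT rat 1, 6.06% against 11.1%) to 5 (without MT rat 4, 15.2% against 13.6%). No member passed an adjusted p of 0.05 except with normexp, which called 1, Usp30 (log2 fold change -0.40, adjusted p = 0.0493, against 0.0493 to 1.00 over its alternatives), and 143 of all RNAs against 40. Members whose groups did not overlap numbered 2 with 75th percentile scaling (6.06%, against 6.43% of all RNAs), 3 with normexp (9.09% against 5.67%) and 3 in the deposited table (9.38% of 32 members against 5.66%). They numbered 3 without slide 3, also when it was left out before normalization (both 9.09% against 12.3%). With 1 rat left out they numbered 1 to 2 (3.03% to 6.06%, against 5.89% to 9.67% of all RNAs). Linear folds above 1.5 numbered 3 with 75th percentile scaling (9.09% against 12.1%) and 4 with the fixed block (12.1% against 4.73%). With 1 rat left out they numbered 0 (without MT rat 2, NS rat 8 or NS rat 9) to 2 (without MT rat 3, 6.06% against 6.18%). Over these 10 settings the share of all RNAs ran from 4.1% to 8.29%. The study's criteria were met by 1 member with the fixed block (Usp26), 1 without slide 3 (Usp13) and 1 with slide 3 left out before normalization. The Usp26 value of MT rat 2, on which the fixed block rests, was not well above background. Shares of all RNAs were not counted for these criteria outside the main fit.

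The fixed block turned the log2 fold change of Usp26 to -1.42, of Usp31 to -0.85 and of Usp42 to -0.046, and the random block that of Usp26 to -0.49 and of Usp31 to -0.40. Leaving out slide 3 turned Usp6nl to 0.048, Usp13 to -0.61, Usp26 to -0.20 and Usp49 to 0.20. Leaving it out before normalization, chosen after seeing the data, gave 0.040, -0.61, -0.21 and 0.18. With 1 rat left out, Usp31 ran from -0.20 (without NS rat 6) to 0.41 (without MT rat 2) and was -0.0043 without MT rat 4, Usp13 from 0.11 to 1.09 and Usp42 from 0.20 to 0.57. The causes were not tested. Requiring signal on all 10 arrays left no value for Usp26, Usp39 and Usp42. The normexp correction used the median spot signal. No paired analysis was possible because the groups share no replicate numbers.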
